A study of Mus musculus with 20 samples.

Results

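The *Sostdc1* cluster of follicular helper T (TFH) cells comprised 2803 of the 28192 sequenced splenic follicular T cells, and its members were the cells to which the authors' deposited annotation gave the name Sostdc1, 1 of 6 cluster names. The activated TFH cluster, the main one it is compared with here, held 11953 cells, the follicular regulatory T (TFR) cluster held 11650, and the effector, central memory (CM) and interferon-stimulated (ISG) TFH clusters held 682, 725 and 379. The cells came from 10 C57BL/6 bone marrow chimeras, mice irradiated at 8 to 10 weeks of age whose blood system was rebuilt from donor marrow. In 5 WT chimeras the marrow was congenic wild type marrow, and these mice were immunized with NP-OVA (a hapten coupled to ovalbumin) in alum 6 weeks after irradiation. In 5 mixed 564Igi chimeras wild type congenic marrow was mixed with marrow carrying an autoreactive B cell clone, whose knocked-in B cell receptor recognizes ribonuclear complexes, and no immunization is given for them. Both kinds of chimera were analyzed 10 weeks after irradiation according to the sample labels. The study's text adds a booster dose for the WT mice and no separate time of analysis, so the interval since antigen is uncertain. The sort gate kept CD3+CD4+ cells positive for CD45.2, CXCR5 and PD-1 and negative for CD45.1, and the sources used here do not say which of the mixed marrows the sorted T cells of 564Igi chimeras came from. Autoimmunity and immunization cannot be told apart in any difference between the conditions, nor can the separate normalization of WT and 564Igi cells.

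TFH cells stay in the B cell follicle, where contact with germinal center B cells through the T cell receptor, CD40 ligand and cytokines such as IL-21 and IL-4 supports B cell survival and antibody maturation, while TFR cells restrain the response. *Sostdc1* encodes a secreted protein of the sclerostin family that binds bone morphogenetic proteins and antagonizes Wnt signaling. *Tnfsf8* encodes CD30 ligand, a membrane protein of the tumor necrosis factor family found on activated T cells.

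Each mouse contributed between 82 cells (564Igi mouse 24) and 518 cells (WT mouse 36) to the cluster, with a median of 263. Raw unique molecular identifiers (UMIs) summed over these cells ranged from 232954 to 2052173 per mouse, and the median cell of a mouse held 2597 to 4092. Compared with activated cells of the same mouse, *Sostdc1* cells had a median UMI count higher by 179 ± 271 (SD, n = 10) and a mitochondrial share higher by 0.197 ± 0.106 percentage points, the latter in 10 of 10 mice. Their ribosomal share was lower by 1.05 ± 0.732 percentage points in 10 of 10 mice. The authors' G2M score was lower in 10 of 10 mice too, by 0.0274 ± 0.0130 score units. Of the cells in all libraries, 988 (3.505%) carried a barcode sequence that also occurred in another library, 104 of them in the *Sostdc1* cluster, and each pair of libraries shared 2 to 23 such sequences.

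*Sostdc1* itself separated the cluster from the rest. Expression levels below are means over a mouse's cells of log2(corrected UMI count + 1), where corrected counts are those the authors' sctransform step returned, and a difference is between such means. Every cell of the cluster had at least 3 corrected counts of *Sostdc1*, with a median of 13 and a highest value of 65, and 2400 of the 2803 cells had 8 or more. Detection outside the cluster averaged 19.8% of activated cells per mouse and 9.14% of TFR cells. Among activated cells, 1065 (8.91%) had at least 3 counts but only 48 had 8 or more, and among TFR cells 382 and 66 reached those levels. Of 52315 corrected *Sostdc1* counts in the whole matrix, 42089 (80.5%) lay in the cluster. These values describe how the cells were grouped and were not tested, since the clusters were drawn from expression in these same cells. *Sostdc1* lies on GRCm38 chromosome 12, 36314139 to 36318452, plus strand.

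Other markers of helper and regulatory cells were read in the same way. *Tnfsf8* was detected in 77.0% ± 5.96 of *Sostdc1* cells, against 63.5% of activated and 21% of TFR cells. *Pdcd1*, which encodes the PD-1 receptor on which all cells had been sorted, was detected in 89.8% ± 2.93 against 75.8% and 74.3%. *Foxp3*, the defining transcription factor of regulatory T cells, was found in 4.33% ± 2.28, against 7.20% of activated and 56.1% of TFR cells. *Cd3e*, part of the T cell receptor complex, was detected in 99.8% of the cluster's cells, *Cd4* in 77.4%, *Cxcr5* in 47.3% and *Icos* in 70.1%. The B cell gene *Ms4a1* was detected in 0.0478%. Per mouse, *Tnfsf8* detection was at least 66.5% and *Foxp3* detection at most 7.61%. The clusters were drawn from expression in these same cells, so the levels of these genes describe the labelled identity and are no independent check of it.

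**Figure D1:**
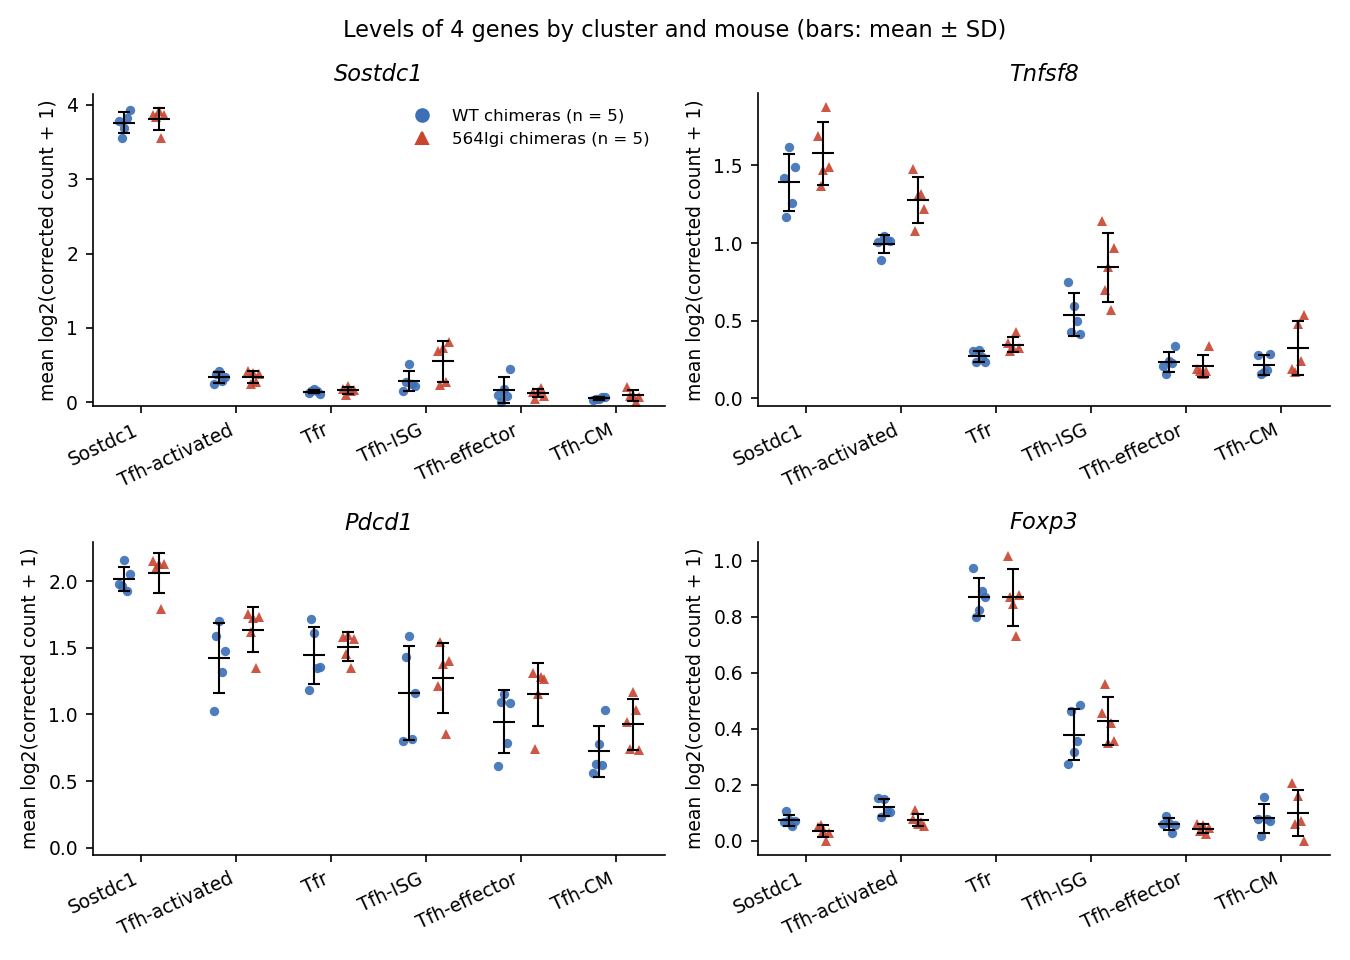
Mean level, log2(corrected UMI count + 1), of *Sostdc1*, *Tnfsf8*, *Pdcd1* and *Foxp3* in the 6 clusters. Circles are WT mice and triangles 564Igi mice, and bars show the mean ± SD of the 5 mice of each condition. Over all 10 mice *Sostdc1* averaged 3.78 in its own cluster and 0.34 in the activated cluster, and *Tnfsf8* was highest in the same pair of clusters.

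Against activated cells of the same mouse, 35 of 10073 genes (0.347%) were higher in *Sostdc1* cells and 19 (0.189%) were lower, counting genes whose 10 mice all pointed one way with a mean difference past 0.2. With expression per 10000 counts the numbers were 115 and 111. The clusters were drawn from expression in these same cells, on variable genes that the authors selected, so the counts are a description and carry no test. The median difference over the 10073 genes was 0.00. Set against TFR cells, 93 genes (0.923%) were higher and 78 (0.774%) were lower, and set against all other cells of the mouse, 57 (0.566%) were higher and 29 (0.288%) were lower. By number of genes on this log2 scale, the cluster thus lay nearer to activated TFH than to TFR cells, and its distance to the 3 small clusters was not measured.

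*Pdcd1* had the widest difference upward after *Sostdc1* itself. Its level in *Sostdc1* cells was 1.98, 1.96, 2.16, 1.93 and 2.05 in WT mice 11, 12, 14, 23 and 36, and 2.15, 2.10, 2.13, 1.79 and 2.12 in 564Igi mice 13, 17, 21, 24 and 34. In activated cells of the same mice *Pdcd1* ranged from 1.02 (WT mouse 11) to 1.75 (564Igi mouse 13), and the within-mouse difference averaged 0.51 ± 0.18 (SD, n = 10). *Hif1a*, the oxygen-regulated transcription factor, was higher by 0.45 ± 0.15 (1.74 against 1.29), and *Tbc1d4*, a regulator of glucose transporter traffic, by 0.44 ± 0.14 (1.63 against 1.19). The endosomal tether *Eea1* was higher by 0.41 ± 0.10, the tetraspanin *Cd82* by 0.37 ± 0.10 and the actin-binding protein gene *Marcksl1* by 0.37 ± 0.10. *Tnfsf8* was higher by 0.35 ± 0.15, with 1.48 in *Sostdc1* and 1.14 in activated cells, and lay at 0.31 in TFR cells. The other genes among the 15 with the widest differences upward were *Tnfaip8* (0.34), the glycolytic enzymes *Tpi1* (0.33) and *Aldoa* (0.32), *Dap* (0.32), the receptor-proximal kinase *Zap70* (0.30) and the G protein regulators *Rgs16* (0.29) and *Rgs10* (0.29).

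*Thy1*, a surface glycoprotein of T cells, was the gene with the widest difference downward. In *Sostdc1* cells its level was 0.82, 0.99, 0.53, 0.73 and 0.67 in WT mice 11, 12, 14, 23 and 36, and 0.42, 0.71, 0.46, 0.55 and 0.37 in 564Igi mice 13, 17, 21, 24 and 34, while in activated cells the lowest mouse stood at 0.84 and the highest at 1.54. The within-mouse difference averaged −0.54 ± 0.11, and *Thy1* was detected in 38.3% of *Sostdc1* and 60.5% of activated cells. *Klf2*, a transcription factor that sustains expression of the egress receptor *S1pr1*, was lower by 0.37 ± 0.15 (detected in 14.4% against 31.1%). *Ms4a4b* was lower by 0.39 ± 0.21, *S100a10* by 0.33 ± 0.11, *Crip1* by 0.31 ± 0.15, the T cell adaptor *Lat* by 0.29 ± 0.09, *Anxa6* by 0.28 ± 0.12, *Gimap4* by 0.28 ± 0.07, the noncoding RNA *AW112010* by 0.28 ± 0.13 and the integrin chain *Itgb7* by 0.27 ± 0.11. *AW112010* was the narrowest of these in its lowest mouse, where the difference was −0.01.

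**Figure D2:**
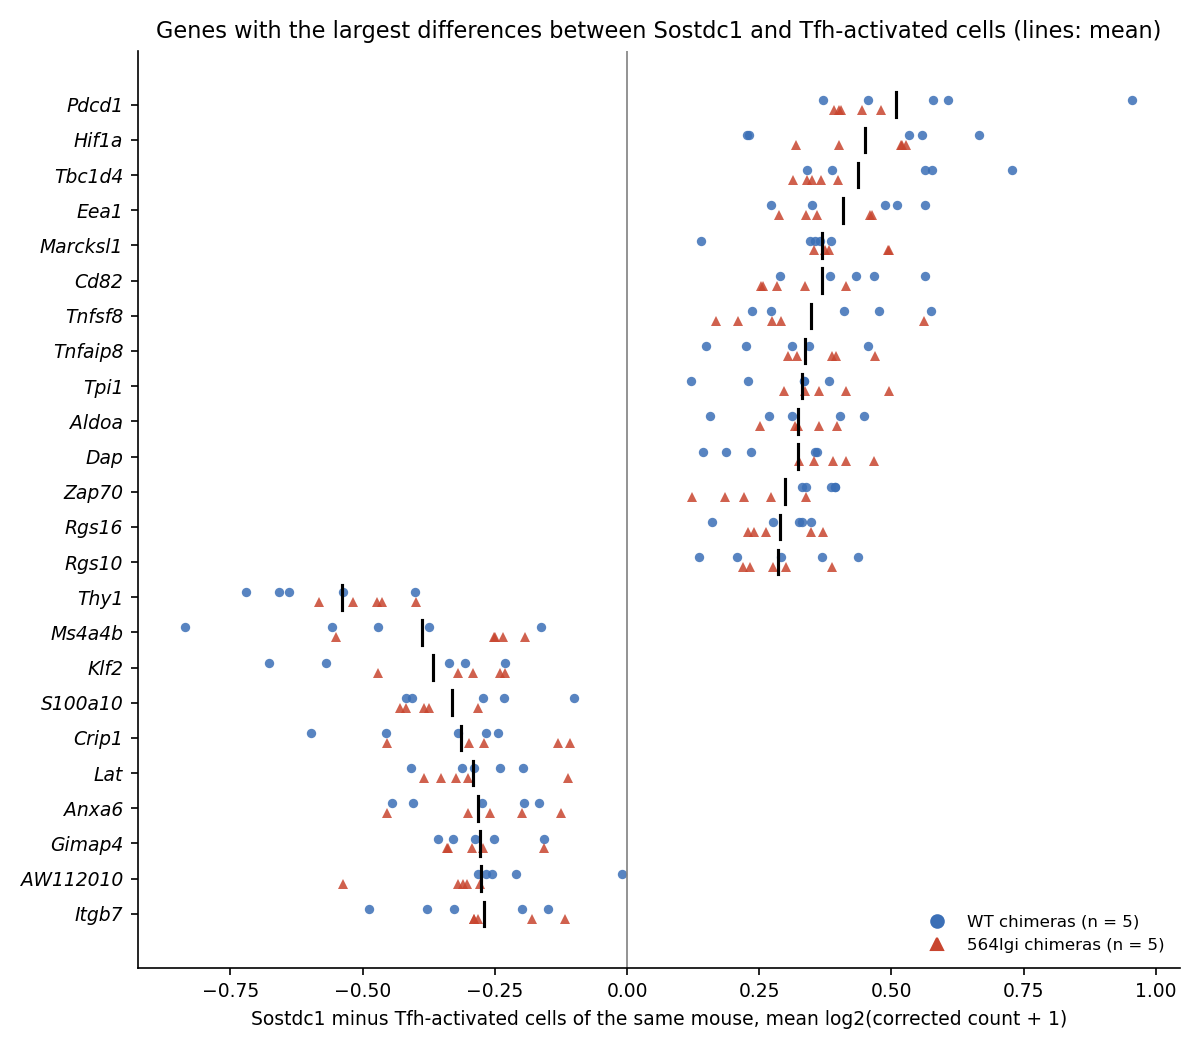
Difference in level, log2(corrected UMI count + 1), between *Sostdc1* and activated TFH cells of the same mouse, for 24 leading genes other than *Sostdc1*. Each symbol is 1 mouse (circles WT, triangles 564Igi) and each black line the mean of 10 mice; all mice of each gene lie on one side of 0, from −0.54 for *Thy1* to 0.51 for *Pdcd1* on average.

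Activated cells that carried *Sostdc1* transcripts lay between the clusters for most of these genes. They were picked by the gene that marks the cluster, and neither doublets nor background counts were measured, so their values are a description. In activated cells with at least 3 corrected *Sostdc1* counts *Pdcd1* stood at 1.86, compared with 1.48 in activated cells with none and 2.04 in the *Sostdc1* cluster. *Thy1* stood at 0.87, compared with 1.21 and 0.63. *Tnfsf8* reached 1.45 in these activated cells, 0.04 below its level in the cluster and 0.36 ± 0.17 above activated cells without *Sostdc1* counts. For *Crip1* the activated cells with *Sostdc1* counts were at 0.93, level with the cluster at 0.93, whereas those with none were at 1.29. The direction was the same as for the cluster in 10 of 10 mice for *Pdcd1*, *Tnfsf8*, *Thy1* and *Crip1*, and in 7 of 10 mice for *Ms4a4b*.

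Of 20 listed TFH identity genes, *Pdcd1*, *Tnfsf8* and *Tox* (1.13 against 0.91) were higher than in activated cells by the rule above (0.347% of all genes) and 0 were lower (0.189%), and the list's median difference was 0.07 beside 0.00 for all genes. *Ascl2*, a transcription factor that promotes *Cxcr5* expression, was at 0.50 against 0.31 and was higher in 9 of 10 mice. *Bcl6*, the lineage-defining repressor of TFH cells, was detected in 16.2% of *Sostdc1* and 11.3% of activated cells. Against TFR cells, 9 of the 20 were higher (0.923% of all genes) and 1 was lower (0.774%).

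Among ligands of B cell help, none of the 8 listed genes described passed the 0.2 limit against activated cells. That is near the shares of all genes (0.347% higher, 0.189% lower), and the list's median difference was 0.05. *Csf1*, which encodes a macrophage growth factor, was detected in 21.6% of *Sostdc1* and 9.91% of activated cells and was higher in 10 of 10 mice. *Cd40lg*, the CD40 ligand, had a level of 0.81 against 0.67, and *Il21* had 0.37 against 0.27, both in 10 of 10 mice. *Il4* was detected in 18.2% against 12.6% of cells and was higher in 8 of 10 mice, as was *Tnfsf14*, while *Ifng* and *Tnfsf13b* were higher in 7. *Il10*, a cytokine that dampens inflammation, went the other way, with detection in 0.318% of *Sostdc1* and 3.14% of activated cells and lower levels in 10 of 10 mice.

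Among genes of follicular position and recirculation 0 of 16 were higher (0.347% of all genes) and 4 were lower (0.189% of all genes), namely *Klf2*, *Itgb7*, *Selplg* and *Itgb1*, with a median difference of −0.07 beside 0.00 for all genes. *Selplg*, the ligand of P-selectin, was at 0.21 against 0.45. *Itgb1*, the shared chain of the beta-1 integrins, was at 0.96 against 1.18. *S1pr1*, which draws lymphocytes out of lymphoid organs, was at 0.27 against 0.42, and *Gpr183*, an oxysterol receptor that guides cells to the follicle border, at 0.19 against 0.35, both lower in 10 of 10 mice. *S1pr2*, which holds cells in the germinal center, was at 0.28 against 0.19 and higher in 9 of 10. Of 11 memory and naive genes described, only *Klf2* passed the limit, downward (0.189% of all genes), and 0 were higher (0.347%). *Ccr7*, a chemokine receptor that draws T cells to the T cell zone, was lower in 10 of 10 mice with a difference of −0.08.

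Because *Sostdc1* acts on Wnt and bone morphogenetic protein signals, genes of those pathways were listed too. Of 54 listed genes, 44 were in the matrix and 34 were detected often enough to describe. *Sostdc1* was the only one past the limit, beside 0.347% of all genes higher and 0.189% lower. With shares this small, the lack of others says little about the pathways. The median difference was 0.00. *Lef1*, a transcription factor downstream of Wnt, was at 0.29 against 0.38, and *Wls*, which carries Wnt proteins to the surface, at 0.29 against 0.22, both in the same direction in 10 of 10 mice.

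On the list of inhibitory receptors and related genes 2 of 11 were higher than in activated cells (0.347% of all genes), 0 were lower (0.189%) and the median difference was 0.11. These 2 were *Pdcd1*, on whose protein the cells had been sorted, and *Tox*, which is not a receptor but a transcription factor of chronically stimulated T cells. *Tigit*, a receptor that competes with CD226 for its ligands, was higher by 0.22 in 9 of 10 mice, a mean over WT mice at 0.40 and 564Igi mice at 0.03. *Cd200* was higher by 0.21 in 9 of 10 mice, and *Nt5e*, the CD73 enzyme that makes adenosine, by 0.16 in 10 of 10. Of 21 T cell receptor signaling genes *Zap70* was higher (0.347% of all genes), *Lat* was lower (0.189%) and 19 were neither. Of 16 glycolysis genes *Tpi1*, *Aldoa* and *Pgam1* (0.92 against 0.67) were higher (0.347% of all genes) and 0 were lower (0.189%), with a median difference of 0.07 beside 0.00. Of 12 genes listed for the activated cluster, 7 were lower and 0 higher, a count that the clustering fixes.

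Regulatory T cell genes set the cluster apart from TFR cells. Of 11 described, 6 were lower (0.774% of all genes) and 0 higher (0.923%) than in TFR cells, with a median difference of −0.40. The clusters were drawn from expression in these same cells and the TFR cluster was named by *Foxp3*, so these counts describe the grouping. Against activated cells 0 passed the limit, which is near the shares of all genes (0.347% higher, 0.189% lower). In that contrast *Tnfrsf4* and *Nrp1* were higher in 10 of 10 mice, and *Foxp3* and *Il2ra* were lower in 9 of 10. *Tnfrsf4*, the OX40 receptor, was lower than in TFR cells by 0.91, *Ikzf2* by 0.86 and *Foxp3* by 0.82. Among helper lineage genes *Stat4*, the transducer of IL-12 signals, was higher than in activated cells by 0.21 (0.347% of all genes). None of the other 10 passed in either direction (0.189% of all genes lower). None of the interferon-stimulated (18), heat shock (12), immediate early (9), ribosomal (16) or cell cycle (14) genes described passed the limit against activated cells in either direction. With 0.347% of all genes higher and 0.189% lower, these counts do not set the lists apart from other genes.

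Transcripts of other cell types were rare in the cluster. Counts of the B cell list, led by *Cd74*, summed to 0.509 to 1.71 per 10000 corrected counts per mouse, close to 0.570 to 1.502 in activated cells and below 5.04 to 10.7 in TFR cells. The CD8 and natural killer list, led by *Nkg7*, summed to 0.284 to 1.14 in *Sostdc1* and 1.22 to 5.24 in activated cells. Plasma cell genes, led by *Xbp1*, summed to 0.934 to 2.01, and myeloid genes, led by *Cst3*, to 1.57 to 2.05, while *Csf1r* and *S100a9* were at 0. Genes of natural killer T and gamma-delta cells, led by *Cd160*, summed to 0.881 to 1.85, and *Zbtb16*, the defining factor of natural killer T cells, was detected in 0.0316% of cells. Red cell and platelet genes summed to at most 0.110, with *Hbb.bs* the most abundant.

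How large the cluster was in each condition was asked with the mouse as the unit. It took 7.35%, 7.32%, 7.57%, 9.03% and 12.9% of cells in WT mice 11, 12, 14, 23 and 36, and 11.6%, 6.39%, 14.4%, 7.31% and 11.8% in 564Igi mice 13, 17, 21, 24 and 34. The ranges overlapped throughout, and the difference of 1.46 percentage points did not exceed the spread over mice (exact permutation test, two-sided, p = 0.444). It was 0.444 points without 564Igi mouse 21, and 2.44, 2.205 and 2.47 points without 564Igi mouse 17, 564Igi mouse 24 and WT mouse 36, with no p under 0.05 (exact permutation, lowest p = 0.230). As a share of *Sostdc1* plus activated cells, which leaves TFR numbers aside, it was 17.7% ± 3.61 in WT and 18.9% ± 6.58 in 564Igi chimeras (exact permutation p = 0.698). The labelled sex split these shares in opposite directions. The 3 female 564Igi mice lay at 11.6% to 14.4% and the 2 female WT mice at 7.32% to 7.35%, whereas the 2 male 564Igi mice lay at 6.39% to 7.31% and the 3 male WT mice at 7.57% to 12.9%. Averaged within sexes the difference between conditions was 1.14 percentage points (exact permutation p = 0.54, not adjusted, in a test chosen after the values were seen). *Xist*, the RNA of the inactive X chromosome, was detected in 83.1% to 94.7% of the cluster's cells in mice labelled female and 84.2% to 91.6% in those labelled male, and *Eif2s3y* in 0% of both. The sequenced cells descend from donor marrow, and the sex given in the labels cannot be read from them.

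**Figure D3:**
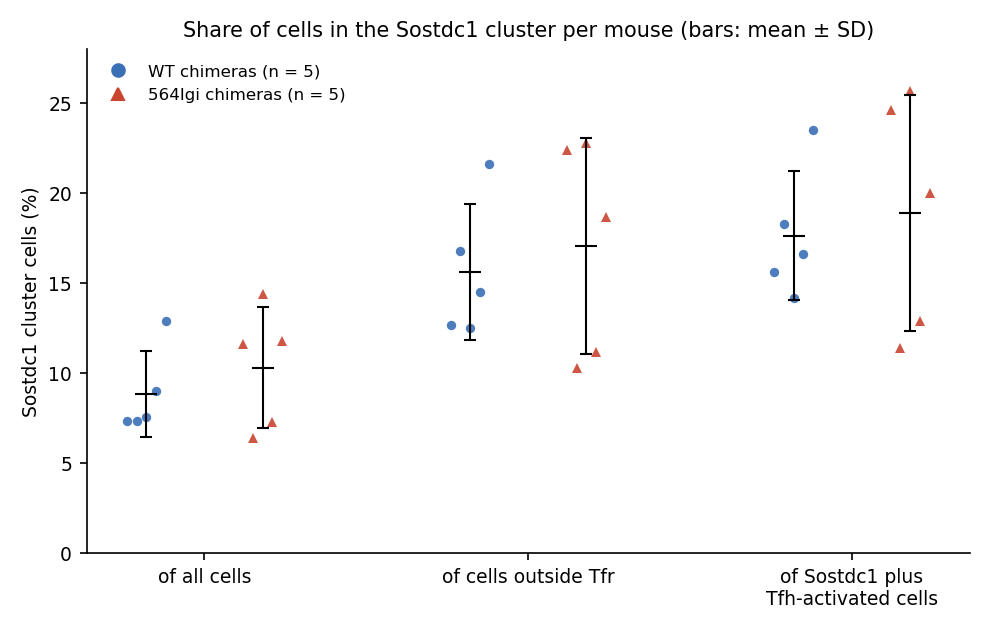
Cells of the *Sostdc1* cluster per mouse in percent of all cells, of cells outside the TFR cluster and of *Sostdc1* plus activated cells. Circles are WT and triangles 564Igi mice, with bars for the mean ± SD of 5 mice; the conditions overlap with each denominator.

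Few transcripts separated 564Igi from WT chimeras within the cluster. With limma on the 10 per-mouse means, 2 of 9885 genes tested (0.0202%) were called higher in 564Igi mice (adjusted p under 0.01 after Benjamini and Hochberg, with a log2 fold change of more than 0.2 in size), and 0 were called lower (0% of genes; 4 genes passed an adjusted p of 0.05 and 455, or 4.6%, an unadjusted p of 0.05). *Gm42031*, a long intergenic noncoding RNA on chromosome 8 (GRCm38, 85125872 to 85132289, minus strand), had levels of 0.43, 0.54, 0.71, 0.53 and 0.56 in WT mice 11, 12, 14, 23 and 36. In 564Igi mice 13, 17, 21, 24 and 34 its levels were 2.38, 2.23, 2.32, 3.06 and 3.42. The groups were far apart, with a log2 fold change of 2.13 ± 0.16 (SE; limma adjusted p = 3.77e-08). Without the trend in limma the adjusted p was 0.0236, which ended the call at 0.01. Activated cells of the same mice showed a like separation, 0.40 ± 0.13 in WT and 2.32 ± 0.56 in 564Igi mice.

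*Tpt1*, which encodes an abundant growth-associated protein, was the other gene called. Its levels were 4.25, 4.21, 4.30, 4.36 and 4.38 in WT mice 11, 12, 14, 23 and 36, and 4.54, 4.54, 4.59, 4.51 and 4.53 in 564Igi mice 13, 17, 21, 24 and 34. The groups did not overlap, and the log2 fold change was 0.24 ± 0.04 (limma adjusted p = 0.00345). In activated cells the groups were apart too, at 4.35 ± 0.10 in WT and 4.57 ± 0.04 in 564Igi mice. *Tpt1* has processed copies elsewhere in the genome, so which locus its reads came from is uncertain. The call was lost with expression per 10000 counts (limma adjusted p = 0.468), without the trend (0.0964), without the filter on low genes (0.0554), and when any 1 of WT mice 11, 12 and 14 or 564Igi mice 17, 21 and 24 was left out (limma adjusted p at most 0.023). The intergenic RNA *Gm30211* was at 0.22 ± 0.04 in WT and 0.55 ± 0.17 in 564Igi mice without overlap and missed the limit (0.33, limma adjusted p = 0.0104). It was called with mice weighted by cells, with the library numbering or the heat shock score as covariate, and per 10000 counts. The same held when 564Igi mouse 17 or 564Igi mouse 34 was left out. *Sostdc1* differed by 0.05 ± 0.07 SE between the conditions (limma adjusted p = 0.9997). This decides nothing about the gene, since every cell of the cluster carried it. *Tnfsf8* differed by 0.19 without passing (limma adjusted p = 0.9997).

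Genes whose 5 WT and 5 564Igi mice did not overlap numbered 33 upward (0.334%) and 50 downward (0.506%), or 83 of 9885 (0.84%), and were named by the size of their difference. The largest such differences upward after *Gm42031* and *Gm30211* were those of the ribosomal protein genes *Rplp0* (0.25) and *Rpl10* (0.25), and then *Tpt1*. Downward, *Tigit* led with −0.30 ± 0.08 (SE; limma adjusted p = 0.367). *Tigit* levels were 1.40, 1.58, 1.23, 1.32 and 1.34 in WT mice 11, 12, 14, 23 and 36, and 1.15, 1.13, 1.04, 0.96 and 1.08 in 564Igi mice 13, 17, 21, 24 and 34. Over all mice *Tigit* averaged 1.77 in TFR cells and 1.22 in the cluster, and values of regulatory T cell genes by condition are given below. *Reep5* (−0.15), the neurotrophin receptor *Ntrk3* (−0.14), *Tnfsf11* (−0.13), which encodes RANK ligand, and the protease gene *Ctsw* (−0.11) followed, all with limma adjusted p between 0.115 and 0.453.

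Genes that the study names for its autoimmune chimeras were chosen there on these samples, so their directions here are not independent evidence. Of the 10, *Gm42031* was called, 7 had a log2 fold change above 0 and the median was 0.18, beside −0.00387 for all genes, of which 38.5% were above 0. *Ly6a*, which encodes the Sca-1 surface protein, was at 1.40 ± 0.15 in WT and 1.69 ± 0.19 in 564Igi mice, a difference of 0.29 that did not pass (limma adjusted p = 0.902). For *Gm42031* and *Ly6a* the study also reports increases by quantitative RT-PCR in sorted TFH and TFR cells. It reports higher Sca-1 by flow cytometry and immunofluorescence as well. Those assays did not single out the *Sostdc1* cluster. *Id3*, an inhibitor of E proteins, was at 0.88 ± 0.24 and 0.56 ± 0.18 (−0.32, limma adjusted p = 0.582), and *Thy1* at 0.75 ± 0.17 and 0.50 ± 0.13 (−0.25, limma adjusted p = 0.591). *Itgb1* differed by −0.10, *Il7r* by 0.00 and *Lag3* by 0.06, each with overlapping groups.

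Glycolytic enzymes leaned upward in the 564Igi cluster without reaching the limit. The study reports higher glycolytic genes in autoimmune chimeras from these same samples, so the counts below are not independent evidence. Of 15 tested, 14 had a log2 fold change above 0 (38.5% of all genes), 9 had an unadjusted p below 0.05 (4.6% of all genes) and 0 were called, with a median of 0.22 (0.29 with expression per 10000 counts). *Aldoa* was at 1.71, 1.68, 2.36, 2.09 and 2.29 in WT mice 11, 12, 14, 23 and 36, and at 2.51, 2.19, 2.45, 2.30 and 2.63 in 564Igi mice 13, 17, 21, 24 and 34, so that WT mice 14 and 36 overlapped with the 564Igi mice (0.39 ± 0.13 SE, limma adjusted p = 0.881). *Tpi1* differed by 0.36 ± 0.10 (limma adjusted p = 0.614) and *Pkm* by 0.30 ± 0.12 (limma adjusted p = 0.9997). Activated cells showed like differences between the conditions, 0.37 for *Aldoa*, 0.26 for *Tpi1* and 0.32 for *Pkm*, each with overlapping groups. *Pfkl*, a phosphofructokinase, was the only member whose groups did not overlap (0.13, limma adjusted p = 0.367), beside 0.84% of all genes.

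Genes of the ribosomal list, which holds ribosomal protein genes and the translation elongation factors *Eef1a1* and *Eef1b2*, also lay upward, with 0 called. All 16 had a log2 fold change above 0 (38.5% of all genes), with a median of 0.14 (0.12 per 10000 counts) beside −0.00387 for all genes. An unadjusted p below 0.05 was reached by 6 (4.6% of all genes), and 4 were higher without overlap (0.334% of all genes). *Eef1a1*, 1 of these 4, differed by 0.18 ± 0.03 (SE; limma adjusted p = 0.0457), which is short of the limits set for a call; it and *Derl3* below were named after their values were seen. The ribosomal share of UMIs in *Sostdc1* cells was 20.8% ± 0.790 in WT and 22.0% ± 1.51 in 564Igi mice, and the part of this difference in the ribosomal and *Tpt1* values was not tested.

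Marker lists of other cell types were summed by condition too, per 10000 corrected counts. The B cell list summed to 0.849 ± 0.397 in WT and 1.13 ± 0.510 in 564Igi mice. The plasma cell list stood at 1.225 ± 0.287 and 1.58 ± 0.366, and its member *Derl3*, detected in 2.09% of the cluster's cells, was higher in 564Igi mice without overlap but by only 0.03 (limma adjusted p = 0.0933). The natural killer T and gamma-delta list went the other way, at 1.55 ± 0.208 in WT and 1.13 ± 0.259 in 564Igi mice, with the highest 564Igi mouse (1.41) above the lowest WT mouse (1.35). Its most abundant gene *Cd160*, an immunoglobulin family receptor, differed by −0.08 (limma adjusted p = 0.884). The regulatory T cell list, led by *Ikzf2*, summed to 18.8 ± 1.35 in WT and 17.1 ± 2.60 in 564Igi mice. *Foxp3* was detected in 6.00% of the cluster's cells in WT and 2.67% in 564Igi mice. The part of these lists in the differences between conditions was not tested.

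TFH identity genes split into 9 above and 11 below 0, and 4 of 15 positioning genes tested were above 0 and 11 below, beside 38.5% of all genes above 0. *S1pr1* was 1 of the 11, and its groups did not overlap (−0.11, limma adjusted p = 0.648), as for 0.506% of all genes downward. No gene of the B cell help, Wnt and bone morphogenetic protein, memory, receptor signaling, regulatory, helper lineage, interferon, heat shock, immediate early or cell cycle lists was called (0.0202% of all genes higher, 0% lower). Of 10 regulatory genes tested, 4 were above 0 and 6 below, and 4 had an unadjusted p below 0.05 (4.6% of all genes). These were *Ikzf2* (−0.305), *Tnfrsf18* (−0.11), *Foxp3* (−0.04) and *Ikzf4* (−0.03), with limma adjusted p of 0.648 or more. *Ccr8* (−0.06) and *Mcm5* (−0.04) were lower without overlap (0.506% of all genes).

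**Figure D4:**
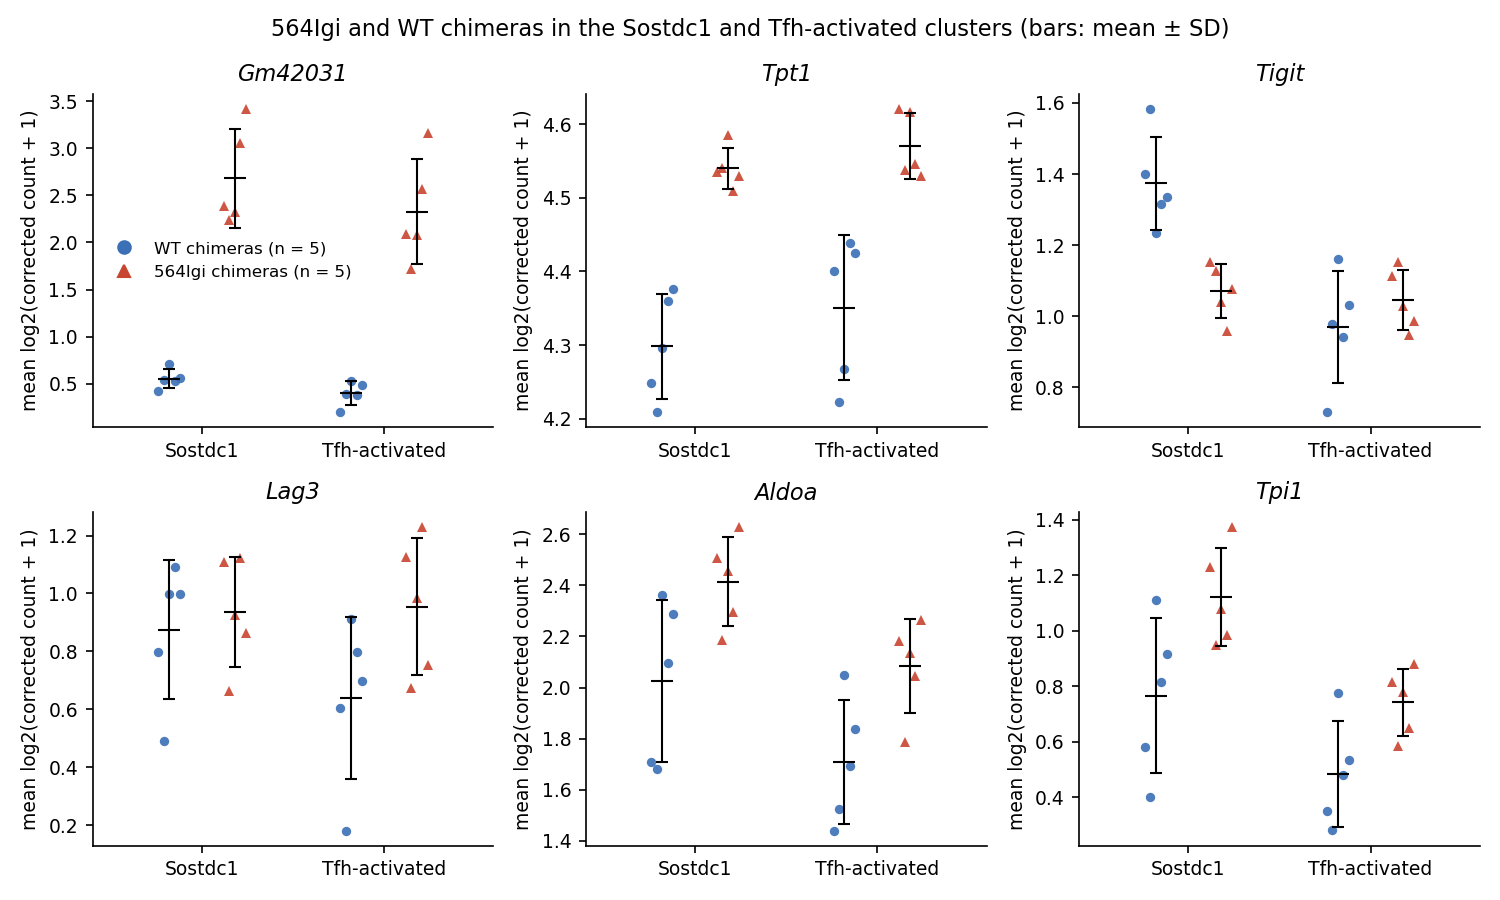
Mean level, log2(corrected UMI count + 1), of *Gm42031*, *Tpt1*, *Tigit*, *Lag3*, *Aldoa* and *Tpi1* in *Sostdc1* and activated TFH cells of each mouse. Circles are WT and triangles 564Igi mice, with bars for the mean ± SD of 5 mice; *Gm42031* separates the conditions in both clusters, whereas *Tigit* separates them in *Sostdc1* but not in activated cells.

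Whether the conditions differed by other amounts in *Sostdc1* than in activated cells was tested on each mouse's difference between the clusters. With limma, 2 of 9671 genes (0.0207%) were called lower and 0 higher (0% of genes), namely *Tigit* and *Lag3*, both inhibitory receptors. The count at an unadjusted p of 0.05 was 666 (6.89%), and the mice of 116 genes (1.2%) did not overlap. In WT mice 11, 12, 14, 23 and 36 *Tigit* was higher in *Sostdc1* than in activated cells by 0.67, 0.61, 0.07, 0.37 and 0.30. In 564Igi mice 13, 17, 21, 24 and 34 its differences were 0.04, −0.02, 0.01, 0.01 and 0.09. WT mouse 14 thus overlapped with the 564Igi mice, and the means were 0.40 ± 0.24 and 0.03 ± 0.04 (−0.38, limma adjusted p = 0.00709).

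*Lag3*, a receptor for MHC class II, followed the same order. Its differences were 0.19, 0.31, 0.09, 0.29 and 0.30 in WT mice 11, 12, 14, 23 and 36, and −0.01, −0.01, −0.06, −0.11 and 0.11 in 564Igi mice 13, 17, 21, 24 and 34. The means were 0.24 ± 0.10 and −0.02 ± 0.08 (−0.25, limma adjusted p = 0.00709). The levels behind them differed between the genes. *Tigit* in activated cells was alike in the conditions (0.97 ± 0.16 in WT, 1.05 ± 0.09 in 564Igi), and *Lag3* in activated cells was 0.64 ± 0.28 in WT and 0.95 ± 0.24 in 564Igi mice, while in *Sostdc1* cells it was 0.87 ± 0.24 and 0.94 ± 0.19. Neither call held with the heat shock score as covariate (limma adjusted p = 0.0262 for *Tigit* and 0.0149 for *Lag3*), with expression per 10000 counts (0.0174 and 0.0904), without the trend (0.463 and 0.365), without the filter on low genes (0.630 and 0.366), or when any 1 of WT mice 12 and 23 and 564Igi mice 13, 17, 21 and 24 was left out (at most 0.0423 and 0.0382), although both differences stayed below 0.

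T cell receptors (TCRs) offered a readout that the clustering had not used, since the authors removed receptor genes before it. Paired receptor sequences were available for 2178 of the 2803 *Sostdc1* cells (77.7%), and a clonotype was the set of CDR3 amino acid sequences listed for a cell, CDR3 being the loop formed at the junction of the V and J segments that contacts the antigen. The cells fell into 57 to 199 clonotypes per mouse. Sequences of the leading clones show what such a family shared: in each, all cells carried 1 alpha and 1 beta nucleotide sequence. They are given 5′ to 3′, with the codons of the first (cysteine) and last (phenylalanine or tryptophan) residues of the CDR3 in capitals.
WT mouse 36 clone 1, alpha (TRAV4-4-DV10, TRAJ43): TGTgctgcttacaacaatgccccacgaTTT
WT mouse 36 clone 1, beta (TRBV26, TRBJ2-3): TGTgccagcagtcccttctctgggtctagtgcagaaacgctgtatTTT
WT mouse 36 clone 2, alpha (TRAV4-3, TRAJ30): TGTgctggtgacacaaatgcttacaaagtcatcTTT
WT mouse 36 clone 2, beta (TRBV13-1, TRBJ1-2): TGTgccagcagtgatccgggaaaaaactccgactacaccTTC
564Igi mouse 34 clone, alpha (TRAV7-3, TRAJ13): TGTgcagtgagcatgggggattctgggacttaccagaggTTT
564Igi mouse 34 clone, beta (TRBV13-1, TRBJ2-2): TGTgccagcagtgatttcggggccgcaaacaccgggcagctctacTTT
564Igi mouse 21 clone, alpha (TRAV6N-7, TRAJ33): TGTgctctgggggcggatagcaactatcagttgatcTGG
564Igi mouse 21 clone, beta (TRBV3, TRBJ2-1): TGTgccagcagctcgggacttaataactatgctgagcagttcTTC

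These were the clones with the most *Sostdc1* cells in each condition, 2 per condition, and each extended into the activated cluster. A clone of 564Igi mouse 17 with 20 *Sostdc1* cells (11.8% of 170) tied with that of 564Igi mouse 21 and is not shown. Clone 1 of WT mouse 36 had 35 *Sostdc1* cells (11.9% of the 293 with a receptor), 43 activated, 2 TFR, 1 effector and 1 ISG cell. Clone 2 of the same mouse had 34 *Sostdc1* and 14 activated cells, so that 69.4% of its 49 cells lay in the *Sostdc1* cluster. The clone of 564Igi mouse 34 had 22 *Sostdc1* (10.7% of 206), 28 activated and 1 TFR cell, and that of 564Igi mouse 21 had 20 *Sostdc1* (5.75% of 348), 28 activated and 1 TFR cell. No 2 of the 4 clones had the same alpha or beta sequence, although 2 of them used TRBV13-1.

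*Sostdc1* cells were more clonal than activated and TFR cells, and the effector cluster had the highest mean of the 6 clusters. The chance that 2 cells drawn from a mouse's cluster shared a clonotype, a measure that does not depend on the number of cells, was 2.10%, 3.29%, 2.89%, 1.48% and 3.38% in WT mice 11, 12, 14, 23 and 36. It was 0.671%, 2.02%, 1.32%, 1.13% and 1.41% in 564Igi mice 13, 17, 21, 24 and 34. Activated cells gave 0.707%, 3.74%, 0.606%, 1.51% and 1.19% in the same WT mice and 0.442%, 1.04%, 0.783%, 0.737% and 1.07% in the same 564Igi mice. *Sostdc1* cells had the higher chance in 8 of 10 mice, the exceptions being WT mice 12 and 23, with a difference of 0.786 ± 0.914 percentage points (two-sided exact sign-flip permutation, adjusted p = 0.0215 over 3 tests of clonality). Against TFR cells, at 0.847% ± 0.820, the difference was 1.12 ± 1.21 points in 9 of 10 mice (exact sign-flip permutation, adjusted p = 0.0215). The effector cluster, with 15 to 148 receptor cells per mouse, averaged 7.92% ± 7.09, and *Sostdc1* cells had the higher chance only in WT mouse 36. The CM and ISG clusters averaged 0.0488% and 0.6%, below *Sostdc1* cells in 10 of 10 mice, and none of these 3 comparisons was tested. Without mice 34 and 36, whose library numbers stand apart from the others, the differences were 0.667 and 0.909 points and neither passed 0.05 (exact sign-flip permutation, adjusted p = 0.0703).

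The cluster was less clonal in 564Igi than in WT chimeras, with 1.31% ± 0.488 against 2.63% ± 0.816 (two-sided exact permutation test, adjusted p = 0.0215), although 564Igi mouse 17 lay above WT mouse 23. Its largest clone took 4.63% to 11.8% of *Sostdc1* cells in 564Igi and 6.23% to 14% in WT mice. Cells in clonotypes of 2 or more *Sostdc1* cells made up a median of 51.2% and 67.6%. In 78 cells drawn from each mouse, 59.6 ± 3.97 clonotypes would be met in 564Igi and 49.3 ± 4.29 in WT mice. The same contrast in activated cells was 0.815% ± 0.256 against 1.55% ± 1.28 (exact permutation p = 0.230), and the contrast was not shown to differ between the clusters (difference −0.580 points, exact permutation p = 0.341). These 2 tests were chosen after the values were seen. Without mice 34 and 36 the difference between conditions in the *Sostdc1* cluster was −1.15 points and did not pass (exact permutation, adjusted p = 0.0703). Averaged within labelled sexes it was −1.28 points (exact permutation p = 0.04, not adjusted, in a test chosen after the values were seen).

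**Figure D5:**
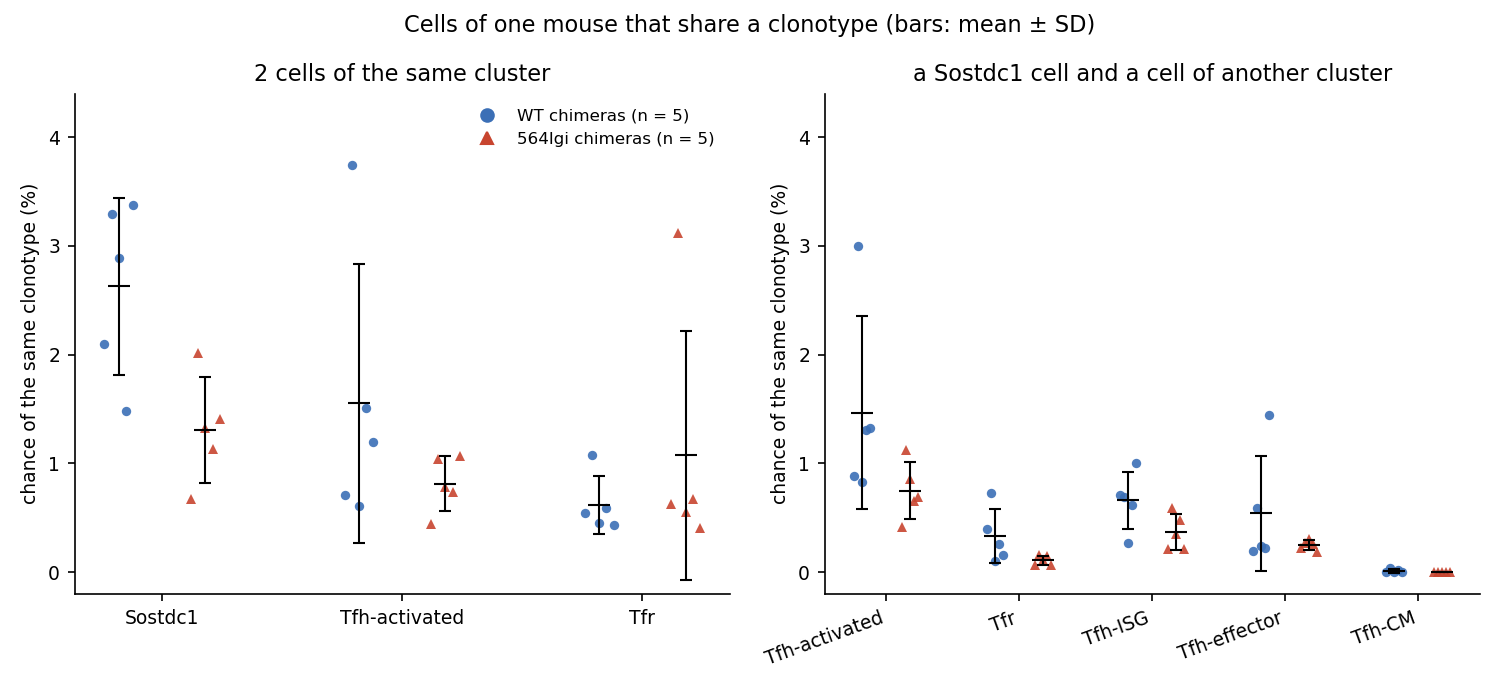
Chance in percent that 2 cells of a mouse share a clonotype, for pairs within the *Sostdc1*, activated and TFR clusters (left) and for pairs of a *Sostdc1* cell and a cell of each other cluster (right). Circles are WT and triangles 564Igi mice, with bars for the mean ± SD of the 5 mice of each condition. Over all 10 mice the mean within the *Sostdc1* cluster is 1.97%, and the highest mean between clusters is that with activated cells, 1.11%.

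Shared receptors tied the cluster to activated TFH cells first. A *Sostdc1* and an activated cell of one mouse shared a clonotype with a chance of 1.11% ± 0.724, with values of 0.880%, 3.0%, 0.825%, 1.31% and 1.32% in WT mice 11, 12, 14, 23 and 36. In 564Igi mice 13, 17, 21, 24 and 34 the values were 0.418%, 1.13%, 0.854%, 0.655% and 0.693%. The chance with TFR cells was 0.219% ± 0.205, with ISG cells 0.515% ± 0.257, with effector cells 0.394% ± 0.388 and with CM cells 0.00560% ± 0.0130. Activated cells exceeded TFR, ISG and CM cells in 10 of 10 mice (exact sign-flip permutation, adjusted p = 0.00326 for each, the smallest p being 0.00195 before adjustment) and effector cells in 9 of 10 (adjusted p = 0.00488), WT mouse 36 being the exception. Pairs within the *Sostdc1* cluster still matched more often than pairs across it and the activated cluster, by 0.861 ± 0.707 points in 10 of 10 mice (exact sign-flip permutation, adjusted p = 0.00586; chosen after the values were seen). Between the conditions the chance with activated cells was 0.749% ± 0.262 in 564Igi and 1.47% ± 0.887 in WT mice (−0.718 points, exact permutation p = 0.0556). WT mouse 12 stood apart, and without it the difference was −0.336 points. The difference passed 0.05 without WT mouse 11 or WT mouse 14 (−0.865 and −0.879 points, exact permutation, adjusted p = 0.0317 and 0.0159). Averaged within labelled sexes it was −0.774 points (exact permutation p = 0.04, not adjusted, in a test chosen after the values were seen).

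Counted as clonotypes, 52.0% ± 4.49 of those with a *Sostdc1* cell also had an activated cell in the same mouse, 26.6% ± 11.4 a TFR cell, 5.13% ± 2.11 an ISG cell, 4.10% ± 1.56 an effector cell and 0.212% ± 0.479 a CM cell. These shares follow the number of cells sampled in each cluster, which the pair chance does not. Of 309 clonotypes with 2 or more *Sostdc1* cells, summed over mice, 24 were found in no other cluster, and 85.8% ± 6.28 also held activated cells. Sharing between mice was rare, with 2 of 1187 distinct clonotypes and 10 of 984 beta CDR3s found in 2 mice and 0 in more.

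V gene use was compared with that of activated cells. With each clonotype counted once, 0 of 66 V genes (0.0%) differed between *Sostdc1* and activated cells at an adjusted p below 0.05 by exact sign-flip permutation over 10 mice, and 7 passed an unadjusted p of 0.05. The smallest p that 10 mice allow here is 0.00195, so a single gene could not have passed after adjustment over 66, and the test does not show that use was alike. Among clonotypes found in only 1 of the 2 clusters, 0 of 69 V genes passed and 8 had an unadjusted p below 0.05 (exact sign-flip permutation, lowest adjusted p = 0.135). TRBV26 was used by 5.82% ± 2.41 of *Sostdc1* and 4.15% ± 1.89 of activated clonotypes, higher in 8 of 10 mice. TRAV16 had 1.87% ± 1.03 against 0.863% ± 0.517 and TRAV6N-6 had 1.63% ± 1.11 against 0.862% ± 0.497. TRAV5-4 (1.16% ± 0.997 against 1.95% ± 0.645) and TRAV6N-7 (2.61% ± 2.14 against 3.35% ± 1.97) went the other way, each higher in only 1 of 10 mice. All of the V genes named here had an exact permutation adjusted p of 0.284. The mean CDR3 beta length was 14 ± 0.209 residues in *Sostdc1* and 13.9 ± 0.0668 in activated clonotypes. Within mice the difference was 0.00896 ± 0.186 residues, with *Sostdc1* clonotypes longer in 5 of 10.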

How the data were processed

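For 10 mice, the authors aligned 10x 5′ gene expression and V(D)J libraries with Cell Ranger 4.0.0 (GRCm38) and filtered and clustered cells in Seurat 3.1.4. The deposited matrix of 13798 genes holds the natural log of sctransform-corrected counts plus 1, normalized for each condition separately; exp(value) − 1 was whole for every value (tolerance 1e-06). UMI and gene counts, percent mitochondrial and ribosomal UMIs, and heat shock and cell cycle scores per cell were deposited by the authors unnormalized. Doublets were not called here.

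Values were converted to log2(corrected count + 1), averaged per mouse and cluster, and tested with limma 3.58.1 (trend, R 4.3.3) over genes detected in at least 1% of cells in 5 mice. Python 3.11.15, numpy 2.4.6, pandas 2.3.3, scipy 1.17.1 and matplotlib 3.10.9 were used elsewhere, with exact permutations over 252 assignments or 1024 sign patterns of 10 mice. The limma step was checked on simulated data. Shares of cells and pair chances are exact for the cells sequenced. Their precision is limited by 82 to 518 *Sostdc1* cells per mouse, and for pair chances by the 78 to 348 of these with a receptor. Mice are the replicates. Gene positions came from GENCODE vM21 for 41 of 41 genes.

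The cluster, the gene lists and the tests were chosen with earlier results of these data known. Genes named were the 15 highest and 10 lowest against activated cells with all mice one way, those called, the 5 widest non-overlapping in each direction, the widest members of each list and those the study names. Alternatives covered the filter, trend, weights, thresholds, scaling, covariates, V gene counting and each mouse left out.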

Additional observations from a re-analysis of the deposited data

Results flagged for a closer look

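The chance that a *Sostdc1* and an activated TFH cell shared a clonotype was 3.0% in WT mouse 12, far from the other WT mice, of which the nearest was at 1.32%. The mean level of *Sostdc1* in its cluster was 3.56 in 564Igi mouse 24, below the other 564Igi mice, of which the nearest was at 3.84, and this mouse also had the fewest cells (82) and the lowest median UMI count (2597). Among 52 groups of 5 mice looked at in this way, these 2 held a mouse standing apart, and chance gives about 1 in 20.

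The difference between 564Igi and WT chimeras was called unequal in *Sostdc1* and activated cells for *Lag3* (−0.253 on the log2 scale, limma adjusted p = 0.00709) and *Tigit* (−0.379, limma adjusted p = 0.00709). Neither call held with the heat shock score as covariate, without the trend, without the filter on low genes or per 10000 counts, and with 1 mouse left out the *Lag3* call was lost in 7 of 10 fits and the *Tigit* call in 8.

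The difference between conditions in the share of cells in the *Sostdc1* cluster was 5.26 percentage points among mice labelled female and −2.98 points among mice labelled male. The gap of 8.25 points gave p = 0.01 over 100 arrangements of condition within sex, the smallest these exact permutations can give, and an adjusted p of 0.03 over the 3 quantities compared, a test chosen after the values were seen. The groups hold 2 or 3 mice each.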

How the results depend on the processing

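In the comparison of 564Igi with WT mice within the cluster, 2 genes were called, with 4 at an adjusted p of 0.05 and no fold limit, 0 without the trend in limma (403 at an unadjusted p of 0.05, and *Gm42031* at adjusted p = 0.0236), 1 without the filter on low genes, 4 with mice weighted by cells and 1 to 3 with a mouse left out. *Gm42031* was the only gene left without WT mouse 11, 12 or 14 or 564Igi mouse 21 or 24, and its log2 fold change stayed between 1.95 and 2.24. Of the difference of differences, 2 genes were called, with 6 at an adjusted p of 0.05 and no fold limit, 0 without the trend (619 at an unadjusted p of 0.05), 0 without the filter (841), 0 with the heat shock score as covariate (655), 1 per 10000 counts (*Gm45716*) and 0 to 2 with a mouse left out.

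Against activated cells, 115 genes were higher and 111 lower per 10000 counts, where 31 and 19 of those counted above recurred, and 57 and 29 against all other cells. Without mice 34 and 36, an alternative added after the data were seen for the clonality results, *Sostdc1* cells exceeded activated cells by 0.667 and TFR cells by 0.909 points, and 564Igi differed from WT by −1.15 points, each no longer past 0.05. The pair chance with activated cells in 564Igi minus WT mice was −0.742 without cells of more than 1 alpha or beta chain (past 0.05) and −0.879 to −0.336 with a mouse left out. Leaving out a mouse gave 0.444 to 2.47 points for the cell share, 0.620 to 0.924, 0.919 to 1.37 and −1.60 to −1.13 for the 3 clonality results.

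Of 414 values under alternatives, from 23 results on named genes, 409 kept their direction. *Lag3* between conditions turned to −0.03407 without WT replicate 3 (mouse 12), and *Il7r* to −0.03929 with mice weighted by cells, −0.03336 per 10000 counts, −0.01601 without WT replicate 1 (mouse 14) and −0.05184 without 564Igi replicate 2 (mouse 24), the lowest and highest with a mouse left out being −0.03407 and 0.1307 for *Lag3* and −0.05184 and 0.0305 for *Il7r*. No paired analysis was possible because the labels give no replicate number shared between the conditions. With labelled sex as covariate 2 genes were called between the conditions and 3 in the difference of differences (*Ikzf2* beside *Lag3* and *Tigit*). With the library numbering as covariate these counts were 3 and 2. Detection at 2597 to 4092 UMIs per cell limits the low genes, and corrected counts of separately normalized conditions limit every comparison between them; the causes of the changes above were not tested.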
